A study of Homo sapiens with 6 samples.

Results

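Ferroptosis is a form of cell death driven by iron and by the peroxidation of polyunsaturated fatty acids in membrane phospholipids. Whether it occurs depends on enzymes that place such fatty acids in membranes, on iron that carries the oxidation, and on enzymes that reduce the lipid peroxides or trap the radicals. In the fibrotic liver it is studied in stellate cells, the collagen-producing cells, because their loss by this route would remove a source of matrix. Described here are 10 genes of this control system, chosen by symbol as genes of lipid peroxide repair (GPX4, AIFM2, DHODH and GCH1), membrane lipid remodelling (ACSL4, ACSL3 and LPCAT3), oxidation and polyamine breakdown (POR and SAT1) and release of iron from ferritin (NCOA4). All 10 are among the 22701 genes listed. All 10 also passed the filter on low values, a mean of at least 1 FPKM (fragments scaled to gene length and library total), and so belong to the 10695 genes tested.

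The libraries hold polyadenylated RNA of LX-2, an established human hepatic stellate cell line. In 3 libraries the cells had received TGF-β and LIG (ligustilide, a phthalide of Angelica and Ligusticum roots) at 20 µM, and in 3 TGF-β alone. TGF-β, the cytokine that activates stellate cells, was common to both groups, at a labelled dose of 5 µg/mL. Cells without TGF-β were not analysed here, the labels give no treatment time, and nothing says that the replicates came from separate cultures, so p-values measure the spread between these samples, which may be technical.

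The FPKM values rest on library totals of 38401783 to 39260090 fragments. Stellate cell and myofibroblast markers (11 of 12 listed) summed to 3044 to 3459 FPKM with LIG and 3398 to 3603 FPKM with TGF-β alone, while DES, one of them, had 0 to 1 fragment per library. Of the 9 tested, 2 fell with LIG (COL3A1, log2 change -0.96, limma adjusted p = 0.0144, and SPARC, -0.46, limma adjusted p = 0.0435). The other markers did not pass, and 3 of the 9 lay above 0 (TIMP1 at 0.27, ACTA2 at 0.09 and VIM at 0.03). The median log2 change was -0.24. The part of these marker changes in the values of the 10 genes was not tested. Hepatocyte markers (3 of 6 listed) summed to 3.3 to 4.88 FPKM with LIG and 3.54 to 4.07 FPKM with TGF-β. Endothelial markers (4 of 4 listed) summed to 0.171 to 0.239 FPKM with LIG and 0.21 to 0.338 FPKM with TGF-β. Cholangiocyte markers (4 of 4 listed) summed to 11.2 to 11.9 FPKM with LIG and 13.6 to 13.9 FPKM with TGF-β, mostly SOX9 (10.1 ± 0.38 and 11.8 ± 0.13 FPKM; limma adjusted p = 0.328), with KRT19 at 0 with LIG and 0.0497 FPKM with TGF-β. Of the 4 leukocyte markers, the sum of 13.8 to 15.2 FPKM with LIG and 12.6 to 14.8 FPKM with TGF-β was nearly all CD68, with PTPRC at 0.0105 and 0.00789 FPKM. LIG replicate 3 and TGF-β replicate 2 stood apart from the other 4 libraries on the first principal component (55.1% of the variance). Their summed FPKM was 362034 and 348518, against 324022 to 328949 in the others, and the mean gene length per fragment was 4888 and 5046 bases, against 5367 to 5437 bases. For each of the 10 genes the change is also given without both of them. The same holds for the list genes set beside them, except lipoxygenases, LPCAT1, MBOAT7, MGST2, PEBP1 and UMPS. It is not given for the cell type markers. That comparison, of LIG replicates 1 and 2 against TGF-β replicates 1 and 3, was chosen after the data were seen. It called 4.65% of all tested genes.

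With LIG, none of the 10 genes passed the test over all genes, and the largest difference was in AIFM2, at 1.41 times its level with TGF-β alone. In all, 0 of 10 rose and 0 of 10 fell (limma, Benjamini-Hochberg adjusted, two-sided), where 0.187% of all tested genes rose, 0.505% fell and 0.692% passed in either direction. The count was also 0 by limma voom on the recovered fragments, where 0.729% of genes passed. Without adjustment, 5 of the 10 (AIFM2, GCH1, ACSL3, POR and SAT1) had a limma p under 0.05, against 8.41% of all tested genes. The 3 libraries of each group did not overlap in 4 of the 10, higher with LIG in AIFM2, POR and SAT1 and lower in ACSL3. Over all tested genes the groups did not overlap in 15.8%, with LIG higher in 9.07% and lower in 6.73%. The median log2 change was 0.03 over the 10 genes and 0.03 over all tested genes. Weighting the libraries by their estimated quality called 6 of the 10 (GPX4, AIFM2, GCH1, ACSL3, POR and SAT1), but also 17.7% of all tested genes. In RNA of whole cultures, fewer cells of a type and less RNA per cell cannot be told apart.

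**Figure D1:**
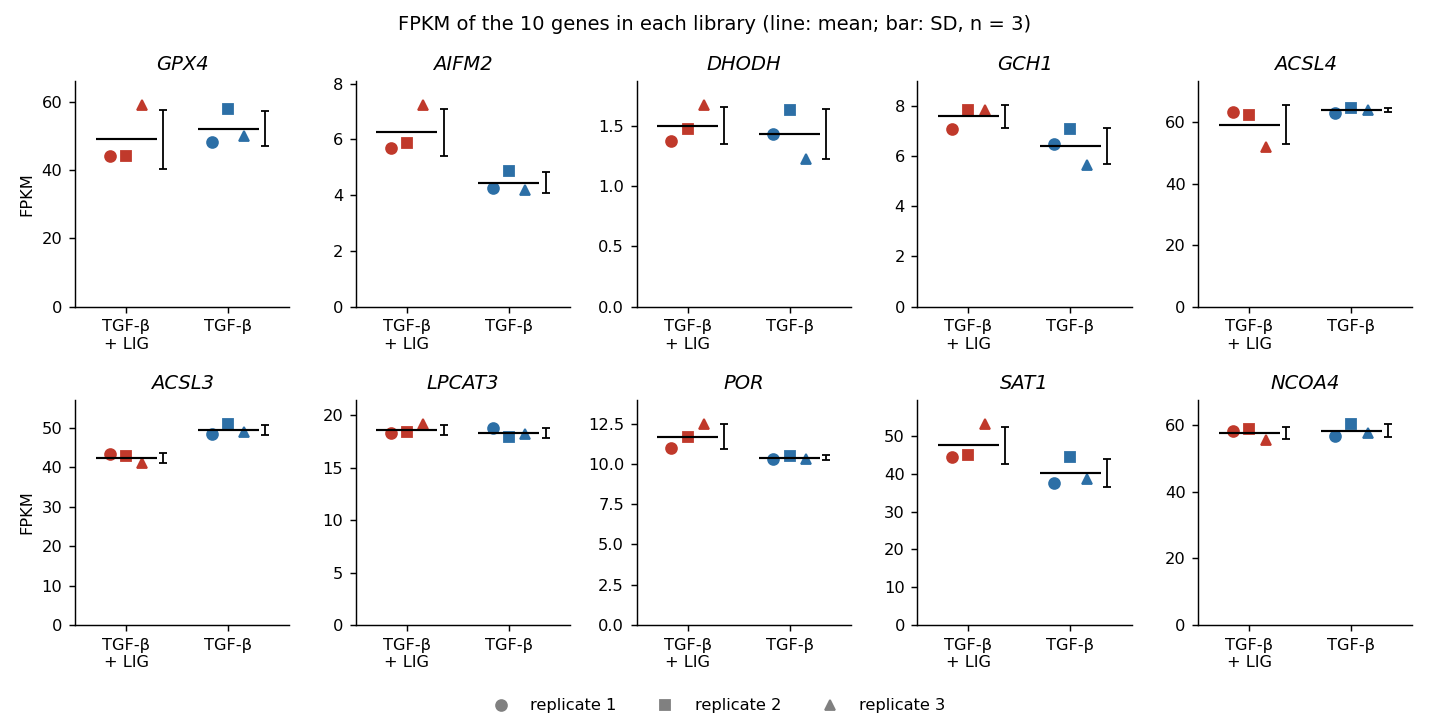
FPKM of each of the 10 genes (vertical axis, from 0, its own scale per gene) in the 3 libraries with TGF-β and LIG (red) and the 3 with TGF-β alone (blue); lines are means and bars are SD (n = 3). AIFM2, POR and SAT1 lie higher with LIG in all 3 libraries and ACSL3 lies lower, while GPX4 is highest in LIG replicate 3 and TGF-β replicate 2.

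GPX4 encodes the selenium-containing peroxidase that uses glutathione to reduce phospholipid peroxides within membranes. It is the central brake on ferroptosis. GPX4 (chromosome 19, 1103926 to 1106791, GRCh38) was at 44.1, 44.1 and 59.1 FPKM in LIG replicates 1 to 3, against 48.3, 58.1 and 50.2 FPKM in TGF-β replicates 1 to 3. The groups overlapped, with LIG replicate 3 and TGF-β replicate 2 the highest libraries of their groups. The means were 49.1 ± 8.64 FPKM with LIG and 52.2 ± 5.21 FPKM with TGF-β (SD, n = 3 each), a log2 change of -0.10 (95% interval -0.38 to 0.19; limma adjusted p = 0.937). Without both libraries that stand apart, GPX4 was lower with LIG (log2 change -0.16, limma adjusted p = 0.0498), in a comparison chosen after the data were seen that called 4.65% of all genes. With 1 library left out, GPX4 did not pass and the log2 change ran from -0.23 without LIG replicate 3 through -0.03 without LIG replicate 1 or 2 to -0.02 without TGF-β replicate 2.

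GPX4 was also the shortest of the 10, with 1153 bases behind its FPKM. It was 0.41 higher on the log2 scale in LIG replicate 3 than the mean of the other LIG libraries, and 0.23 higher in TGF-β replicate 2 than the mean of the other TGF-β libraries. ACSL4, with 5397 bases, was at -0.27 and 0.02 in the same differences. Across the 10695 tested genes, this difference had a Spearman correlation with gene length of -0.71 in LIG replicate 3 and -0.58 in TGF-β replicate 2. These values describe the libraries, and all genes in them share 1 library. The part of length in the GPX4 result was not tested.

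**Figure D2:**
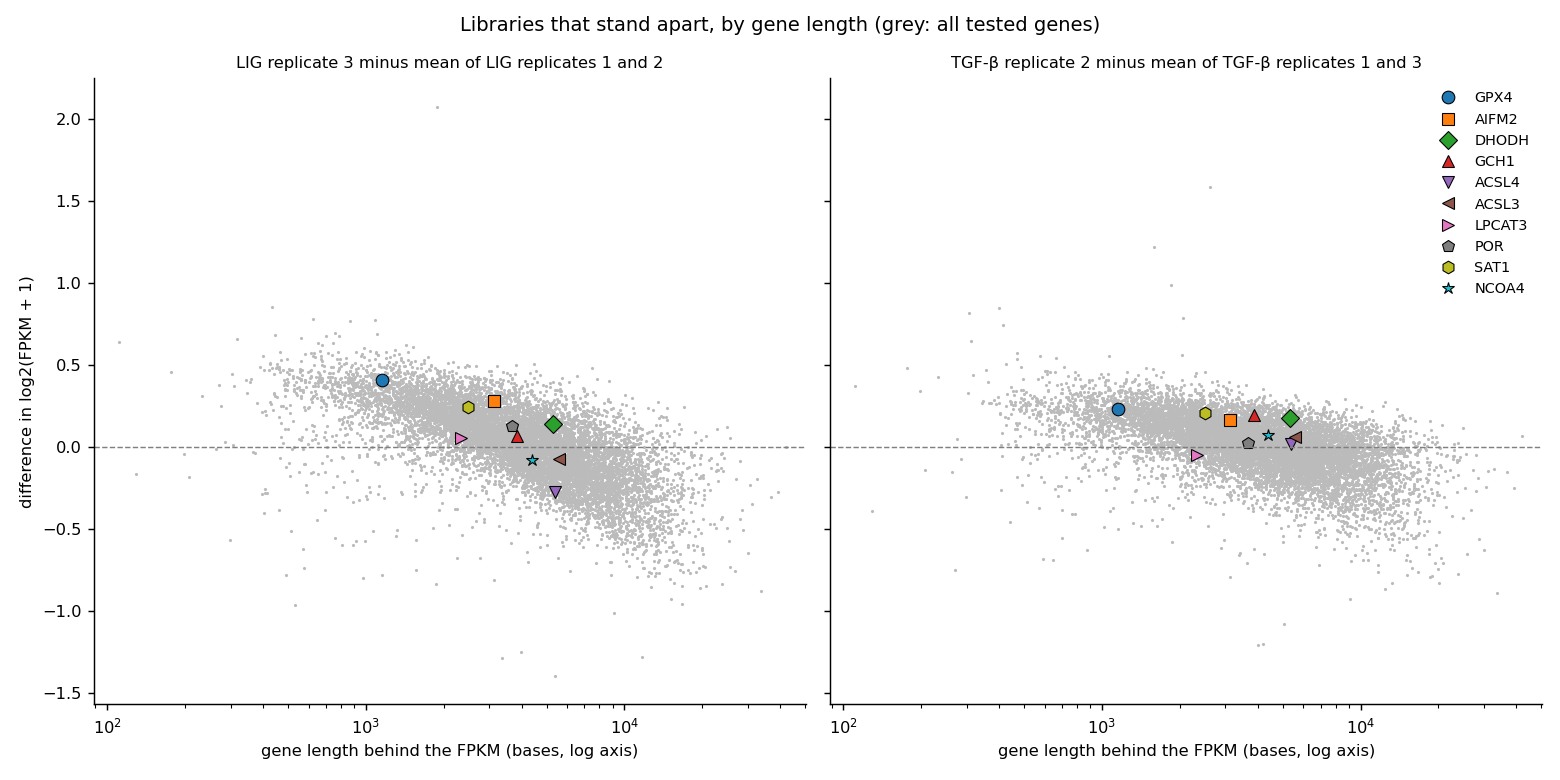
Difference in log2(FPKM + 1) between LIG replicate 3 and the mean of the other LIG libraries (left) and between TGF-β replicate 2 and the mean of the other TGF-β libraries (right), against the gene length behind the FPKM (log axis). Grey points are the 10695 tested genes and coloured symbols the 10 genes; GPX4, the shortest, lies at 0.41 and 0.23.

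AIFM2 encodes ferroptosis suppressor protein 1, an oxidoreductase at the plasma membrane that reduces coenzyme Q, which then traps lipid radicals without glutathione. AIFM2 (chromosome 10, 70098223 to 70132934, GRCh38) was at 5.68, 5.86 and 7.23 FPKM in LIG replicates 1 to 3, against 4.26, 4.88 and 4.19 FPKM in TGF-β replicates 1 to 3. Each LIG library was above each TGF-β library, and again LIG replicate 3 and TGF-β replicate 2 were the highest of their groups. The means were 6.26 ± 0.844 FPKM with LIG and 4.45 ± 0.377 FPKM with TGF-β (SD, n = 3 each), with 509 to 890 fragments per library. The log2 change of 0.41 ± 0.10 (SE; 95% interval 0.19 to 0.63) did not pass over all genes (limma adjusted p = 0.187). A change of this size or more, in either direction, was seen in 1.18% of tested genes. In 2 comparisons chosen after the data were seen, AIFM2 passed as higher with LIG. The log2 change was 0.37 without both libraries that stand apart (limma adjusted p = 0.0103), where 4.65% of all genes passed. With summed FPKM as a covariate it was 0.37 (limma adjusted p = 0.00157), where 7.11% of all genes passed. Both comparisons also called GPX4, ACSL3 and SAT1. With the covariate their log2 changes were -0.15, -0.21 and 0.20 (limma adjusted p = 0.0236, 0.00778 and 0.00694). The exons of AIFM2 share 11 bases with an exon of MACROH2A2 on the opposite strand. MACROH2A2 was at 8.15 ± 0.324 FPKM with LIG and 8.1 ± 0.844 FPKM with TGF-β. ACSL4 shares 78 exonic bases with KCNE5 on the same strand, and ACSL3 shares 102 with AC013476.1 on the opposite strand. POR shares 19 with TMEM120A on the opposite strand and 73 with MIR4651 on the same strand. The use of strand in counting is not given in the sources used here.

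Many genes of the antioxidant response carry, near their starts, an element bound by the transcription factor NRF2, whose core is written TGACNNNGC. RefSeq promoter windows (GRCh38.p14, 250 bases before to 50 after a gene's start) were at hand for 8 of the 10 genes, in 11 windows, and both strands were searched. The core was found in 2 of the 11 windows, those of AIFM2 and NCOA4, against 13.3% of 35116 windows of the same length. The matches are shown beside that of GCLM, a glutathione synthesis gene that passed the test here, with the core in capitals on the gene's strand, 5′ to 3′. GCLM was chosen from the genes that passed, and the windows of the others are not shown.
AIFM2: cagcacgagtGCTGAGTCAcgccccgccc
NCOA4: ctctgaaagcTGACAGTGCtctaactgcg
GCLM: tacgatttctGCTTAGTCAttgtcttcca
In AIFM2 (chr10:70132829-70132857, minus strand) the core lies on the strand opposite to the gene and begins 22 bases before the start. It contains the letters TGAGTCA, which are also the core of the AP-1 element. In GCLM (chr1:93909446-93909474, minus strand) it lies 34 bases before the start, also on the opposite strand, and in NCOA4 (chr10:46019958-46019986, minus strand) 24 bases after one of its starts, on the gene's own strand. A match of letters is a description and not a site of binding.

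DHODH and GCH1, of other routes that limit lipid radicals, had smaller log2 changes than AIFM2, with intervals that overlapped its own. Differences between these genes were not tested. DHODH encodes the mitochondrial dihydroorotate dehydrogenase, an enzyme of pyrimidine synthesis that also reduces coenzyme Q in mitochondria. DHODH (chromosome 16, 72008588 to 72027664) was the lowest of the 10, at 1.37, 1.47 and 1.67 FPKM in LIG replicates 1 to 3, against 1.43, 1.63 and 1.22 FPKM in TGF-β replicates 1 to 3. The groups overlapped (log2 change 0.05, 95% interval -0.15 to 0.24, limma adjusted p = 0.963, and 0.06 without both libraries that stand apart), on 250 to 349 fragments per library. GCH1 encodes GTP cyclohydrolase 1, which limits the synthesis of tetrahydrobiopterin, a radical-trapping cofactor. GCH1 (chromosome 14, 54842008 to 54902852) was at 7.08, 7.85 and 7.86 FPKM in LIG replicates 1 to 3, against 6.49, 7.09 and 5.65 FPKM in TGF-β replicates 1 to 3. The groups met at LIG replicate 1 and TGF-β replicate 2. The log2 change was 0.22 (95% interval 0.02 to 0.42; limma adjusted p = 0.539), and 0.26 without both libraries that stand apart (limma adjusted p = 0.103). It was 0.14 without TGF-β replicate 3 and 0.34 with the libraries weighted by quality.

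Among the genes of membrane lipid remodelling, ACSL3 was lower with LIG in all 3 libraries, and ACSL4 and LPCAT3 overlapped between the groups. ACSL4 and ACSL3 both encode long-chain acyl-CoA synthetases. ACSL4 favours arachidonic and other polyunsaturated acids and so supplies the lipids that peroxidise, whereas ACSL3 activates monounsaturated acids, which protect membranes. ACSL4 (chromosome X, 109624244 to 109733403) was the highest of the 10, at 63.3, 62.3 and 51.9 FPKM in LIG replicates 1 to 3, against 63.1, 64.5 and 64.0 FPKM in TGF-β replicates 1 to 3. Only LIG replicate 3 lay clearly below the rest. The log2 change was -0.11 (95% interval -0.31 to 0.08; limma adjusted p = 0.826), and -0.02 without both libraries that stand apart (limma adjusted p = 0.828).

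ACSL3 (chromosome 2, 222860934 to 222944639) was at 43.3, 42.9 and 41.0 FPKM in LIG replicates 1 to 3, against 48.3, 51.0 and 49.0 FPKM in TGF-β replicates 1 to 3. The spread within each group was smaller than the gap between them. The means were 42.4 ± 1.25 FPKM with LIG and 49.4 ± 1.38 FPKM with TGF-β (SD, n = 3 each). The log2 change of -0.22 ± 0.06 (SE; 95% interval -0.35 to -0.08) did not pass over all genes (limma adjusted p = 0.277). In the comparison without both libraries that stand apart, chosen after the data were seen, ACSL3 passed as lower with LIG (log2 change -0.17, limma adjusted p = 0.0276).

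The ratio of ACSL4 to ACSL3 was 1.46, 1.45 and 1.27 in LIG replicates 1 to 3, against 1.3, 1.27 and 1.31 in TGF-β replicates 1 to 3. It was higher in LIG replicates 1 and 2 than in any TGF-β library, and LIG replicate 3 lay within the TGF-β range. The log2 ratio differed by 0.11 (two-sided exact permutation p = 0.3, where 0.1 is the smallest that 3 against 3 libraries allow). Without LIG replicate 3 the difference was 0.17 (two-sided exact permutation p = 0.2, the smallest that 2 against 3 libraries allow). ACSL4 made up 54.8 ± 2.13% of the summed FPKM of the family's 5 genes with LIG and 53.9 ± 0.277% with TGF-β, and ACSL3 39.4 ± 1.64% and 41.7 ± 0.558% (SD, n = 3 each). ACSL1, which acts mainly in fat synthesis and burning, was a small share, at 4.53 ± 0.356% with LIG and 3.35 ± 0.306% with TGF-β. Its level was 4.87 ± 0.057 FPKM with LIG and 3.97 ± 0.308 FPKM with TGF-β, which did not pass (log2 change 0.24, limma adjusted p = 0.295; 0.19 and 0.128 without both libraries that stand apart).

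**Figure D3:**
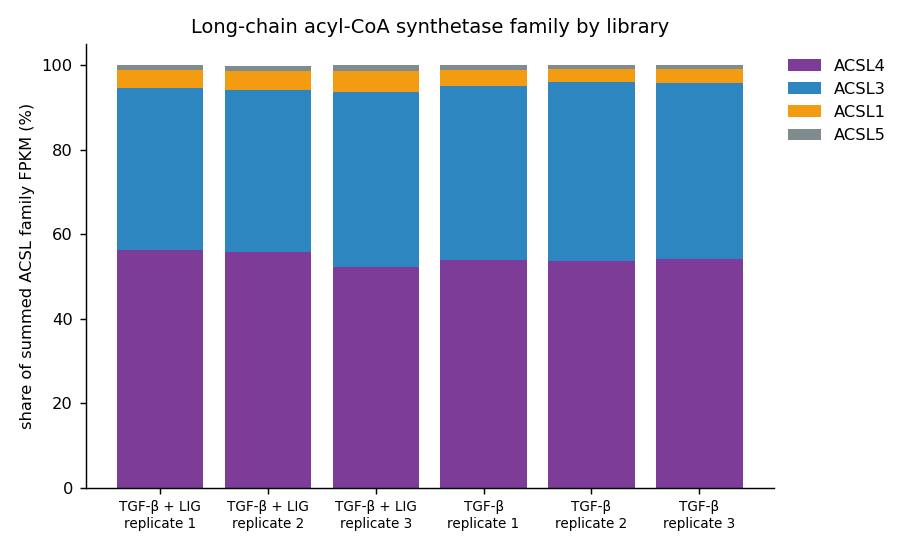
Share of the summed FPKM of the long-chain acyl-CoA synthetase family held by each gene, in percent, in the 3 libraries with TGF-β and LIG and the 3 with TGF-β alone; ACSL6, at under 0.01% in each library, is not drawn. ACSL4 holds 52.3% to 56.2% with LIG and 53.6% to 54.2% with TGF-β.

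LPCAT3 encodes the acyltransferase that inserts the activated polyunsaturated acids into phospholipids. LPCAT3 (chromosome 12, 6976186 to 7018510) was at 18.3, 18.4 and 19.2 FPKM in LIG replicates 1 to 3, against 18.8, 17.9 and 18.2 FPKM in TGF-β replicates 1 to 3. These values varied little in either group, and the groups overlapped (log2 change 0.02, 95% interval -0.11 to 0.16; limma adjusted p = 0.978; -0.01 without both libraries that stand apart). In GENCODE release 29, 3100 of its 4725 exonic bases are shared with EMG1 on the opposite strand. The length behind its FPKM was shorter, at 2339 bases, and how much of it is shared is not known. A part of its fragments may belong to EMG1, which was at 12.3 ± 1.39 FPKM with LIG and 11.5 ± 0.788 FPKM with TGF-β. Of the summed FPKM of 7 lysophospholipid acyltransferases, LPCAT3 made up 15.3 ± 0.153% with LIG and 15.5 ± 0.365% with TGF-β, less than LPCAT1 (32.6 ± 0.415% and 30.8 ± 0.175%) and MBOAT7 (24.8 ± 0.418% and 25.4 ± 0.635%).

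POR, SAT1 and NCOA4 act on the side of oxidation and iron. POR encodes cytochrome P450 oxidoreductase, which passes electrons from NADPH to microsomal enzymes and can feed lipid peroxidation. POR (chromosome 7, 75899200 to 75986855) was at 11.0, 11.7 and 12.5 FPKM in LIG replicates 1 to 3, against 10.3, 10.5 and 10.3 FPKM in TGF-β replicates 1 to 3. The groups did not overlap, and the TGF-β libraries varied little (SD 0.138 FPKM, n = 3). The log2 change was 0.16 (95% interval 0.0031 to 0.31; limma adjusted p = 0.576), and 0.12 without both libraries that stand apart (limma adjusted p = 0.217).

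SAT1 encodes spermidine/spermine acetyltransferase, which starts polyamine breakdown and has been linked to ferroptosis through lipoxygenase. SAT1 (chromosome X, 23783173 to 23786226) was at 44.6, 45.0 and 53.3 FPKM in LIG replicates 1 to 3, against 37.7, 44.4 and 38.6 FPKM in TGF-β replicates 1 to 3. LIG replicate 1 and TGF-β replicate 2 nearly met, and the libraries that stand apart were the highest of their groups. The log2 change was 0.24 (95% interval 0.02 to 0.45; limma adjusted p = 0.536). In the comparison without both libraries that stand apart, chosen after the data were seen, SAT1 passed as higher with LIG (log2 change 0.23, limma adjusted p = 0.00924).

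NCOA4 encodes the receptor that carries ferritin to the lysosome, where its iron is released. NCOA4 (chromosome 10, 46005088 to 46030714) was at 58.3, 58.9 and 55.5 FPKM in LIG replicates 1 to 3, against 56.9, 60.5 and 57.7 FPKM in TGF-β replicates 1 to 3. The groups overlapped (log2 change -0.02, 95% interval -0.16 to 0.12; limma adjusted p = 0.98; 0.03 without both libraries that stand apart), on 9531 to 10324 fragments per library. NCOA4 has pseudogenes that could share reads with it. The ferritin chains that it carries were each higher with LIG in 3 of 3 libraries without passing, and highest in LIG replicate 3 and TGF-β replicate 2 within their groups. FTH1 averaged 1624 ± 264 FPKM with LIG and 1091 ± 108 FPKM with TGF-β, and the log2 change was 0.57 (95% interval 0.24 to 0.89; limma adjusted p = 0.213). FTL likewise had a log2 change of 0.58 (limma adjusted p = 0.118). In the comparison without both libraries that stand apart, chosen after the data were seen, FTH1 and FTL passed as higher with LIG (log2 changes 0.52 and 0.54, limma adjusted p = 0.000388 and 0.000347).

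**Figure D4:**
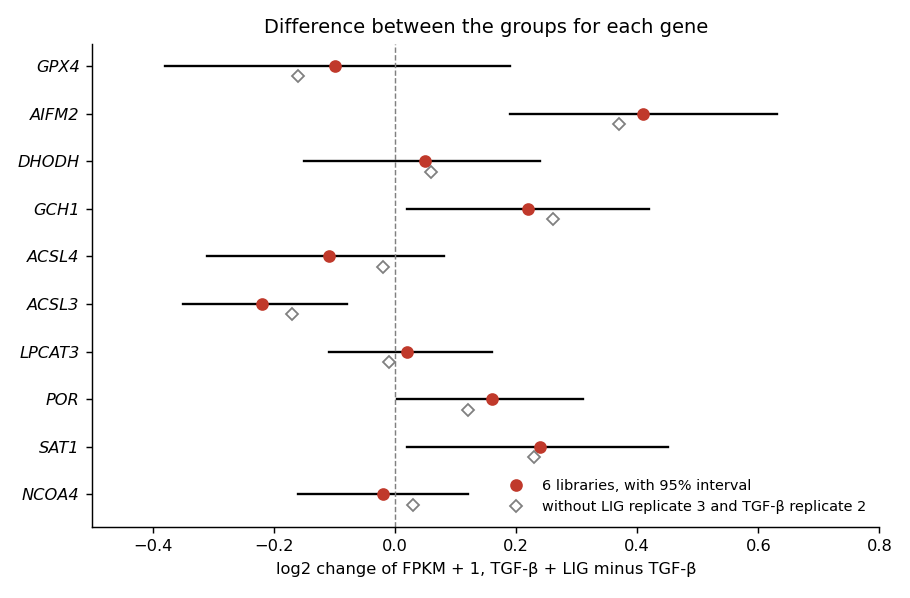
Log2 change of FPKM + 1, TGF-β and LIG minus TGF-β alone, for each of the 10 genes (red points, with 95% intervals not adjusted over genes) and the same without LIG replicate 3 and TGF-β replicate 2 (open diamonds). The interval lies above 0 for AIFM2, GCH1, POR and SAT1 and below 0 for ACSL3, and none passed over all genes.

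In order of level, with LIG, ACSL4 (59.2 ± 6.29 FPKM) and NCOA4 (57.6 ± 1.8 FPKM) were followed by GPX4 (49.1 ± 8.64 FPKM), SAT1 (47.6 ± 4.92 FPKM) and ACSL3 (42.4 ± 1.25 FPKM). LPCAT3 (18.6 ± 0.469 FPKM), POR (11.7 ± 0.757 FPKM), GCH1 (7.6 ± 0.446 FPKM), AIFM2 (6.26 ± 0.844 FPKM) and DHODH (1.5 ± 0.154 FPKM) lay below. From ACSL4 down to ACSL3, each gene's spread overlapped that of its neighbour. With TGF-β alone ACSL3 (49.4 ± 1.38 FPKM) stood above SAT1 (40.2 ± 3.62 FPKM).

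The pathways around these genes were measured through 13 lists of 158 genes, of which 127 were tested. Of these, 2 rose, 0 fell and 125 did not pass, where 0.187% of all tested genes rose and 0.505% fell. Without both libraries that stand apart 12 of the 127 passed, where 4.65% of all tested genes did. The median log2 change in the main comparison was 0.06, against 0.03 over all tested genes. The 2 that rose were GCLM and HMOX1, both in the list of other ferroptosis genes (23 tested, median log2 change 0.10). The other 12 lists had no called gene. GCLM was at 19.7, 20.3 and 19.2 FPKM in LIG replicates 1 to 3, against 11.1, 11.8 and 12.5 FPKM in TGF-β replicates 1 to 3 (log2 change 0.70, limma adjusted p = 0.00528; 0.72 and 0.000417 without both libraries that stand apart). HMOX1, the haem oxygenase that frees iron, averaged 11.4 ± 0.555 FPKM with LIG and 7.49 ± 0.771 FPKM with TGF-β (log2 change 0.55, limma adjusted p = 0.029; 0.59 and 0.00162 without both libraries that stand apart). Its call was lost on omitting LIG replicate 1 or 2 or TGF-β replicate 1 or 3 (limma adjusted p = 0.0973 to 0.185), with log2 changes of 0.49 to 0.59. SLC7A11, the cystine carrier that feeds glutathione synthesis and so GPX4, averaged 3.33 ± 0.915 FPKM with LIG and 1.37 ± 0.131 FPKM with TGF-β and did not pass (log2 change 0.85, limma adjusted p = 0.0596). SLC7A11 was higher with LIG without LIG replicate 3, its lowest LIG library (log2 change 1.03, limma adjusted p = 0.00326), and without both libraries that stand apart (1.00, limma adjusted p = 0.000388).

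Near GPX4, none of 6 tested paralogs and membrane peroxide reductases passed (log2 changes -0.15 to 0.08), nor did any of 8 genes of selenoprotein synthesis (-0.20 to 0.19). Near AIFM2 and DHODH, 0 of 14 coenzyme Q synthesis genes passed. Their median was 0.06 on the log2 scale, and 13 of 14 lay above 0, as did 60.9% of all tested genes. All 14 were higher in LIG replicate 3 than the mean of the other LIG libraries (median 0.19). In TGF-β replicate 2, 10 of 14 were higher than the mean of the other TGF-β libraries (median 0.14). Without both libraries that stand apart 8 of 14 lay above 0 (median 0.03), against 60.8% of all tested genes. Around GCH1, 0 of 8 tetrahydrobiopterin genes passed (median 0.12). AKR1B1, an aldo-keto reductase that can serve the pathway, had the smallest adjusted p there, at 49.6 ± 5.78 FPKM with LIG and 40.2 ± 4.03 FPKM with TGF-β (log2 change 0.29, limma adjusted p = 0.43; 0.28 and 0.0058 without both libraries that stand apart). In a list of pyrimidine synthesis and salvage genes around DHODH, 0 of 7 passed and 5 of 7 lay above 0 (median 0.03). UMPS was higher with LIG, at 6.51 ± 0.211 FPKM against 5.6 ± 0.24 FPKM with TGF-β (log2 change 0.19, limma adjusted p = 0.427). CTPS1, which makes CTP, was at 36.3 ± 0.565 FPKM with LIG and 41.5 ± 0.71 FPKM with TGF-β (log2 change -0.19, limma adjusted p = 0.328; -0.20 and 0.0209 without both libraries that stand apart).

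On the lipid side, 0 of 3 tested acyl-CoA synthetases beside ACSL3 and ACSL4 passed, and neither did any of 8 acyltransferases and phospholipases, 10 genes of polyunsaturated acid synthesis or 9 of ether lipid synthesis. FADS2, the desaturase that starts polyunsaturated acid synthesis, was at 37.7 ± 1.65 FPKM with LIG and 44.1 ± 3.05 FPKM with TGF-β (log2 change -0.22, limma adjusted p = 0.39; -0.24 and 0.0073 without both libraries that stand apart). Lipoxygenases were nearly silent. Of the 5 listed here, ALOXE3 was the highest, at 0.346 ± 0.0927 FPKM with LIG and 0.225 ± 0.0256 FPKM with TGF-β, and ALOX15, the enzyme most often tied to SAT1, had 0 to 2 fragments per library. Around SAT1, 0 of 12 polyamine genes passed. ODC1, which makes the first polyamine, was at 212 ± 19.4 FPKM with LIG and 172 ± 13.7 FPKM with TGF-β (log2 change 0.30, limma adjusted p = 0.342; 0.29 and 0.0023 without both libraries that stand apart).

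**Figure D5:**
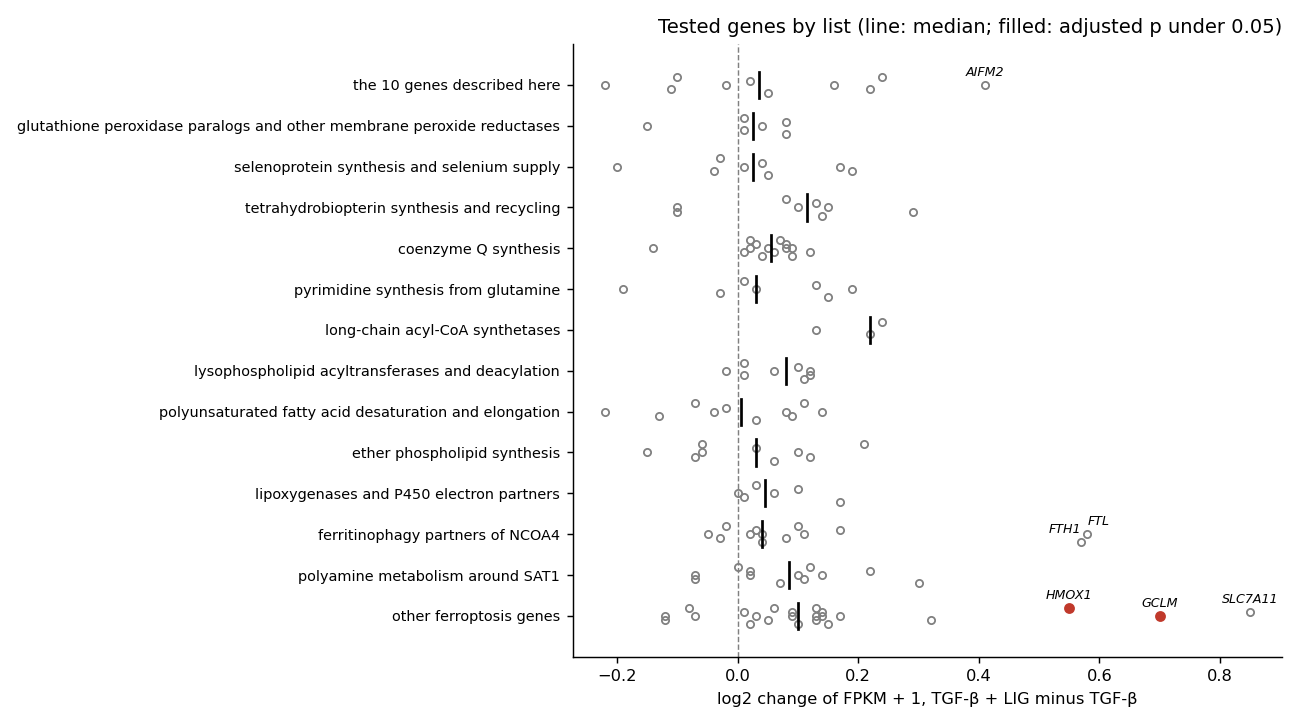
Log2 change of FPKM + 1, TGF-β and LIG minus TGF-β alone, of each tested gene, by list, with the 10 genes in the top row; black lines are medians and filled points passed over all genes. GCLM and HMOX1 are the filled points, and AIFM2 lies farthest to the right among the 10, at 0.41.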

How the data were processed

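RNA of 6 LX-2 libraries was analysed, 3 per group, grouped by their titles. The authors deposited FPKM values in 1 table with a column for each library. Without giving roles, the submitters' processing notes list GRCh38.p13, DESeq2, HISAT2 2.1.0 and fastp. The counting tool, annotation and use of strand are not given in the sources used here. FPKM values are whole multiples of a step per gene, from which fragments, gene lengths and library totals were recovered. The smallest fragment numbers that made a gene's values whole were taken. That 100% of 114123 values above 0 were whole within 0.01 is thus set by the method. Some recovered lengths were not whole (2263.5 bases for ABCF2), and the fragments of such genes are uncertain. The fragments give the depth, and intervals on them would cover counting error only.

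Genes with mean FPKM of at least 1 (10695 of 22701) were tested on log2(FPKM + 1), which understates changes of low genes, with limma 3.58.1 (group only, empirical Bayes with trend, two-sided, Benjamini-Hochberg at 0.05 over all tested genes, 4 residual and 4.1 prior degrees of freedom). The script was tested on simulated data. The 10 genes, the lists, the tests and the alternatives were chosen with earlier results of these data known. Named list genes are those that passed and up to 3 per list with the smallest adjusted p; the lipoxygenases, LPCAT1, MBOAT7, MGST2, PEBP1 and the overlapping genes were named after their values were seen. Of 158 list genes, 153 were listed. Positions are from GENCODE release 29, promoters from RefSeq (GRCh38.p14). Alternatives were other pseudocounts, filters, scalings, variance settings, library weights, voom, the replicate block and leaving out libraries. Python 3.11.15 and R 4.3.3 were used.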

Additional observations from a re-analysis of the deposited data

How the results depend on the processing

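The count of the 10 genes that passed was 0 in the main comparison and stayed 0 under every alternative run except the following. Library quality weights called 6 genes, where 17.7% of all genes passed. Leaving out both libraries that stand apart called 4 (GPX4, AIFM2, ACSL3 and SAT1), where 4.65% of all genes passed. Summed FPKM as a covariate called the same 4, where 7.11% of all genes passed. The cause was not tested. The last 2 alternatives were chosen after seeing the data. The counts over all genes and over the 13 surrounding lists were 74 and 2. They were 14 and 1 with no filter on low values, 1891 and 31 with library quality weights, 497 and 12 without both libraries that stand apart, and 760 and 16 with summed FPKM as a covariate. The list count was 4 after rescaling to TPM, 7 after quantile normalization and 4 by voom. Leaving out 1 library at a time gave 11 (without TGF-β replicate 3) to 93 genes (without LIG replicate 3) over all, with 20 to 29 without any other library, 0 of the 10 genes each time, and 1 to 3 list genes. With the replicate block the counts were 22 over all, 0 of the 10 and 1 in the lists. Deviations from the group means had correlations of 0.47, -0.57 and -0.34 between same-numbered libraries. The correlation was 0.68 between LIG replicate 3 and TGF-β replicate 2, the libraries that stand apart. As those carry different numbers, these correlations cannot show whether the numbers pair cultures. Directions turned in genes near 0. On the log2 scale DHODH ran between -0.02 (without TGF-β replicate 3) and 0.11 when 1 library was left out, with -0.0014 without LIG replicate 3. LPCAT3 was at -0.0014 with quantile normalization and -0.01 without both libraries that stand apart, and NCOA4 at 0.02 with library quality weights, 0.01 without LIG replicate 3, 0.01 without TGF-β replicate 2 and 0.03 without both. MGST2 was at -0.02 with library quality weights, and PEBP1 at -0.04 with these weights and between -0.05 (without LIG replicate 3) and 0.12 when 1 library was left out, with -0.01 without TGF-β replicate 1. AIFM2 kept its direction in each alternative. DHODH has no value at a mean FPKM of at least 5. The difference in the ACSL4 to ACSL3 log2 ratio stayed above 0, between 0.07 and 0.17, when 1 library was left out. Depth limits DHODH most.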
